A study of Homo sapiens with 6 samples.

Results

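The enzymes described here build purine and pyrimidine nucleotides from small precursors, and their messenger RNA was measured in TOV21G cells, an established line from an ovarian clear cell carcinoma. The group was set by name, as the rows of the count table with the symbols PPAT, GART, PFAS, PAICS, ADSL, ATIC, IMPDH1, IMPDH2, CAD and UMPS, which are 10 of the 42656 genes in the table. All 10 passed the filter on low counts. One arm received a lentiviral short hairpin RNA with a scrambled sequence (shCtrl, genotype labelled WT) while the knockdown arm (shMEX3A, genotype labelled MEX3A knockdown) received one against MEX3A, an RNA-binding protein with a RING domain. Virus was given to both at a multiplicity of infection of 50, the harvest was on day 3, and there were 3 libraries per arm. Only 1 hairpin per arm and 1 cell line were used. Nothing in the labels tells whether libraries of an arm are separate cultures, and p-values therefore cover only the spread among these samples, possibly a technical one.

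Purine synthesis starts from phosphoribosyl pyrophosphate (PRPP), the activated ribose to which the ring is added atom by atom until inosine monophosphate (IMP) is complete. IMP is then turned into adenine nucleotides or, through the IMP dehydrogenases, into guanine nucleotides. Pyrimidine synthesis makes the ring first, from glutamine, bicarbonate and aspartate, and joins it to PRPP afterwards. One of its steps, carried out by DHODH, sits in the mitochondrial inner membrane. Growing tumour cells are known to depend on both routes.

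Library totals ran from 34662635 to 48228216 counts. MEX3A, the targeted gene, was lower in every shMEX3A library, at 19.6, 21.0 and 22.2 CPM (read counts per gene brought to a common library total with the TMM method) against 67.6 to 70.7 CPM in shCtrl. Among the clear cell carcinoma markers examined, PAX8 was well expressed (191 to 201 CPM in shCtrl, on library totals), while NAPSA and MUC16 were at or under 0.779 CPM in all libraries. Of 8 leukocyte markers 2 were tested and both were called higher in shMEX3A, CD68 (6.75 to 7.84 CPM in shCtrl and 8.14 to 8.40 CPM in shMEX3A) and ITGAM (0.519 to 0.920 and 1.86 to 2.11 CPM), and the summed level of the 8 was 7.73 to 8.91 and 10.3 to 10.8 CPM. CD3E and MS4A1 were at 0 counts in every library and PTPRC was at or under 0.0577 CPM. Of 6 endothelial markers 2 were tested and CDH5 was called higher (at most 0.0577 CPM in shCtrl and 0.289 to 0.525 CPM in shMEX3A), with a summed level of 0.601 to 0.741 and 0.664 to 0.978 CPM and with KDR and CLDN5 at 0. Only 1 of 6 hepatocyte markers, SERPINA1, was tested, and it was not called. Among the fibroblast markers COL1A1, COL1A2 and DCN were called higher in shMEX3A, and the summed level of the 10 was 591 to 610.3 CPM in shCtrl and 1230 to 1256 CPM in shMEX3A, while FAP, LUM and PDGFRA stayed at or under 0.202 CPM. Any part of these markers in the results was not tested. No library was a duplicate of another, since counts of any pair within an arm differed beyond sampling noise (chi-square over its degrees of freedom at least 2.69).

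All 10 enzyme mRNAs differed between the arms at an adjusted p of 0.05 (edgeR quasi-likelihood test, Benjamini-Hochberg over 15679 genes), with 7 lower and 3 higher in shMEX3A. Over all tested genes 69.7% were called, 35.6% lower and 34.0% higher, so calls were common in this comparison. Levels are relative to the rest of each library's RNA, and in such bulk samples fewer cells of a kind and less RNA per cell cannot be told apart. PPAT, which starts purine synthesis, was 3.11-fold lower, and PAICS was 1.89-fold lower. CAD, which starts pyrimidine synthesis, rose 1.48-fold. The other 7 changed by 0.42 or less in log2. The median log2 fold change of the 10 was -0.25, against -0.01 over all tested genes, and the median absolute change was 0.33 against 0.35. For each of the 10, the CPM of the arms did not overlap, which was also true of 72.3% of all tested genes.

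**Figure D1:**
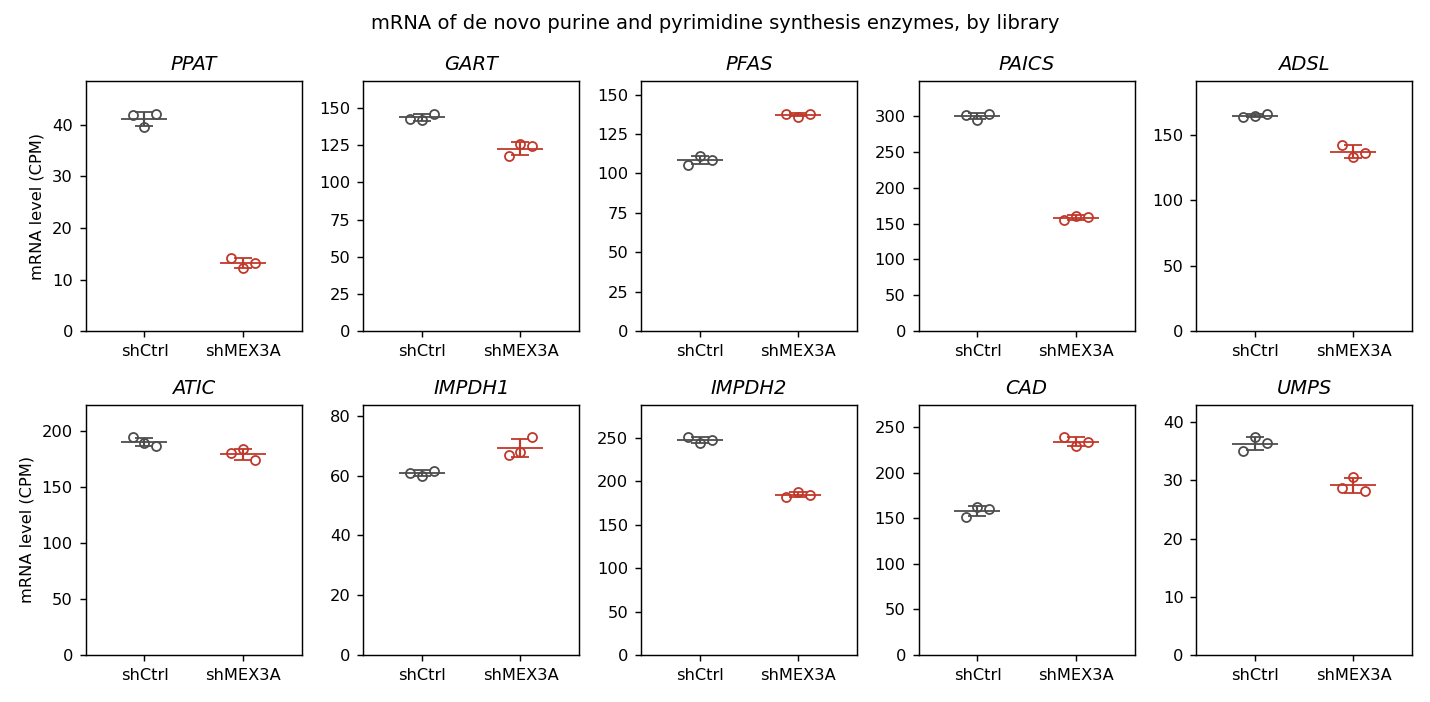
Level of each enzyme mRNA (CPM, linear axis from 0) in the 3 shCtrl libraries (grey) and the 3 shMEX3A libraries (red), with open circles for libraries, a bar for the mean and whiskers for the SD. PPAT and PAICS show the widest gaps, and the arms of ATIC lie closest together.

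PPAT and PAICS are neighbours on chromosome 4, transcribed away from each other. In GENCODE 29 (GRCh38) PPAT spans 56393362 to 56435615 on the minus strand and PAICS 56435741 to 56464579 on the plus strand, so that 126 bases separate their 5' ends. RefSeq gives several start sites for PAICS, and the one nearest to PPAT lies 137 bases from the PPAT start. Another, at 56410507, is 25108 bases from the PPAT start and lies within the PPAT gene, on the opposite strand. The promoter windows (250 bases before to 50 after a start site, RefSeq, GRCh38.p14) of this pair are shown because they overlap by 236 bases and the genes gave the largest falls among the 10. The ATIC window is shown because it was the only other one with an E-box, the motif CACGTG, which reads the same on both strands and is bound by factors such as MYC. Capitals mark the E-box, and each sequence runs 5' to 3' on the strand of its gene.
PPAT, chr4:56435566-56435865, minus strand: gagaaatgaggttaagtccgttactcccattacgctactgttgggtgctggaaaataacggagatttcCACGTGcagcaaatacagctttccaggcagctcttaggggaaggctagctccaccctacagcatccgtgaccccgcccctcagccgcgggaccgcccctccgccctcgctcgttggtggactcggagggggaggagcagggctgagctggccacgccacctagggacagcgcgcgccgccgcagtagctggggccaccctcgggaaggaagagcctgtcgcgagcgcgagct
PAICS, chr4:56435502-56435801, plus strand: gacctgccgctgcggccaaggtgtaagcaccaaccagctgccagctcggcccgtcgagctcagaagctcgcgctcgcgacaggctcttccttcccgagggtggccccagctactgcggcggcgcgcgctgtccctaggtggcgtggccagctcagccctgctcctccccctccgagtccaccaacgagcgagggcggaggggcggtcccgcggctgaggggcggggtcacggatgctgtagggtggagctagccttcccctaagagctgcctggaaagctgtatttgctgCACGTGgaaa
ATIC, chr2:215311809-215312108, plus strand: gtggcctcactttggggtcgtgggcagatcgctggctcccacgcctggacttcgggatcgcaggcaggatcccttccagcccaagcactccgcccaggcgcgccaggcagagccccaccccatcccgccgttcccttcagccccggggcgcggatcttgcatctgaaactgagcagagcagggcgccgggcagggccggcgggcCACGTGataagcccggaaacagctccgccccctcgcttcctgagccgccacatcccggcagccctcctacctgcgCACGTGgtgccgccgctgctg

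The E-box of the PPAT and PAICS windows is one and the same site, at chr4:56435792-56435797. It begins at position -182 from the PPAT start and at position 41 of the PAICS transcript, counted from 1 at the start site. The ATIC window holds it at -46 and at 30. Windows were found for 8 of the 10 genes, 12 windows in all, and 3 of the 12 held an E-box. The same motif lay in 7.26% of all 35116 windows of the RefSeq set and in 8.34% of those of protein-coding genes. The GC box GGGCGG, searched on both strands, lay in 8 of the 12 windows, against 45% of all windows and 56.3% of the 22198 windows of protein-coding genes. It was not in the UMPS window, and some windows of GART and PAICS also lacked it. Windows of PPAT and PAICS overlap, as do some of GART, so the 12 are not separate units. ADSL and IMPDH2 have no entry. A match is a description of the letters and not evidence of binding, and these data hold no measurement of binding.

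**Figure D2:**
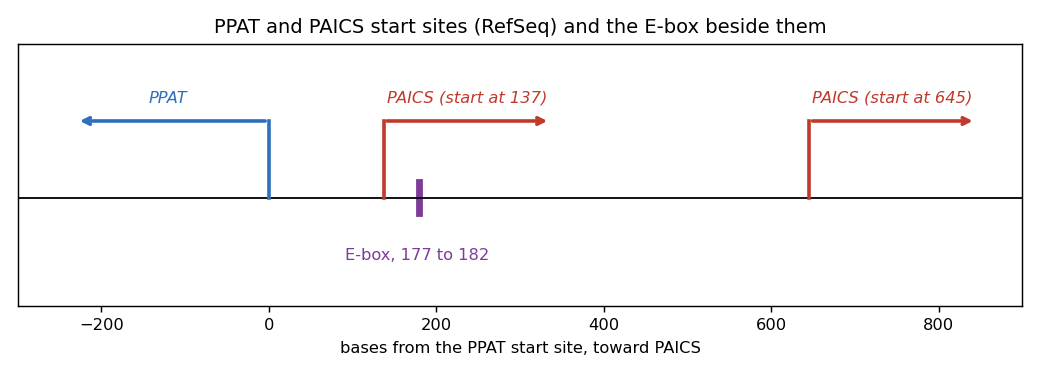
Map of the region where PPAT and PAICS start, with the horizontal axis in bases from the PPAT start site toward PAICS. Arrows show the direction of transcription from the PPAT start and the PAICS starts at 137 and 645 bases, and the box shows the E-box at 177 to 182 bases, inside the PAICS transcript that starts at 137. The RefSeq PAICS start 25108 bases away, within the PPAT gene, is outside the map.

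The other genes lie apart from this pair (GENCODE 29, GRCh38). For IMP synthesis, GART is at chr21:33503931-33543491 on the minus strand, PFAS at chr17:8247618-8270491, ADSL at chr22:40346500-40390463 and ATIC at chr2:215311817-215349773, the last 3 on the plus strand. IMPDH1 is at chr7:128392277-128410252 and IMPDH2 at chr3:49024325-49029408, both on the minus strand. The pyrimidine genes CAD, at chr2:27217390-27243943, and UMPS, at chr3:124730366-124749273, are on the plus strand. Counts here were summed over each whole gene, so no value belongs to a single exon.

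PPAT is the amidotransferase that commits PRPP to purine synthesis and is held to set its rate. Its mRNA stood at 41.8, 39.6 and 42.1 CPM in shCtrl and at 14.2, 12.3 and 13.2 CPM in shMEX3A. Every shMEX3A library lay far under every control. The mean went from 41.2 ± 1.37 to 13.3 ± 0.962 CPM (SD, n = 3 each), a log2 fold change of -1.64 (SE 0.0566, adjusted p = 4.72e-25, edgeR quasi-likelihood test). Only 1.58% of tested genes had a log2 fold change as low or lower, and that of MEX3A itself was -1.72. The counts behind it were 1405 to 1828 per library in shCtrl and 448 to 588 in shMEX3A.

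PAICS carries out a later pair of steps, carboxylation of the half-built ring and addition of aspartate. Its levels were 301, 295 and 303 CPM in shCtrl and 155, 161 and 159.5 CPM in shMEX3A, with no overlap. The mean fell from 299 ± 4.29 to 158 ± 2.93 CPM (SD, n = 3 each; log2 fold change -0.92, SE 0.0305, adjusted p = 1.29e-25, edgeR). The pair thus moved in one direction but by different amounts. The ratio of PPAT to PAICS CPM within a library was 0.139, 0.135 and 0.139 in shCtrl and 0.0918, 0.0767 and 0.0829 in shMEX3A. These ratios did not overlap (difference -0.72 in log2, two-sided exact permutation p = 0.1, the smallest that 3 against 3 allows, and 0.1 adjusted over the 3 ratios examined).

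The other enzymes on the way to IMP changed less. GART, a trifunctional enzyme that acts between PPAT and PAICS, was at 143, 142 and 146 CPM in shCtrl and at 118, 126 and 125 CPM in shMEX3A. All shMEX3A libraries lay below all controls. GART fell from 144 ± 2.19 to 123 ± 4.41 CPM (SD, n = 3; log2 fold change -0.23, SE 0.0335, adjusted p = 1.7e-07, edgeR). ADSL, the adenylosuccinate lyase used once on the way to IMP and again on the way to AMP, was at 163, 164 and 166 CPM in shCtrl and at 143, 133 and 136 CPM in shMEX3A, with no overlap. It fell by 0.26 in log2 (SE 0.0326, adjusted p = 4.5e-09, edgeR). Of ADSL's annotated exon bases 18.9% lie under another gene on the same strand, AL022238.4, so part of its reads could belong to either.

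PFAS, the synthase that brings in a nitrogen from glutamine between the GART steps, went the other way. It was at 106, 111 and 109 CPM in shCtrl and at 138, 136 and 138 CPM in shMEX3A, with no overlap between the arms. PFAS rose from 108 ± 2.84 to 137 ± 1.08 CPM (SD, n = 3; log2 fold change 0.34, SE 0.033, adjusted p = 1.3e-11, edgeR). With offsets for GC content and transcript length its log2 fold change was 0.12 (adjusted p = 0.000648). The interval of the PFAS change (0.27 to 0.41 in log2, 95% confidence) lay above 0 and those of the other genes of IMP synthesis lay below 0.

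ATIC, the bifunctional enzyme that closes the purine ring, had the smallest change of the 10. Its levels were 194, 189 and 187 CPM in shCtrl and 180.0, 184 and 174 CPM in shMEX3A. The lowest control, replicate 3, lay only just above the highest shMEX3A library, replicate 2. ATIC dropped by 5.74% (log2 fold change -0.09, SE 0.0316, adjusted p = 0.0164, edgeR). It was no longer called when shCtrl replicate 1 (adjusted p = 0.0551) or shMEX3A replicate 3 (0.121) was left out, and offsets for GC and length put it at 0.00089 (adjusted p = 0.979).

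**Figure D3:**
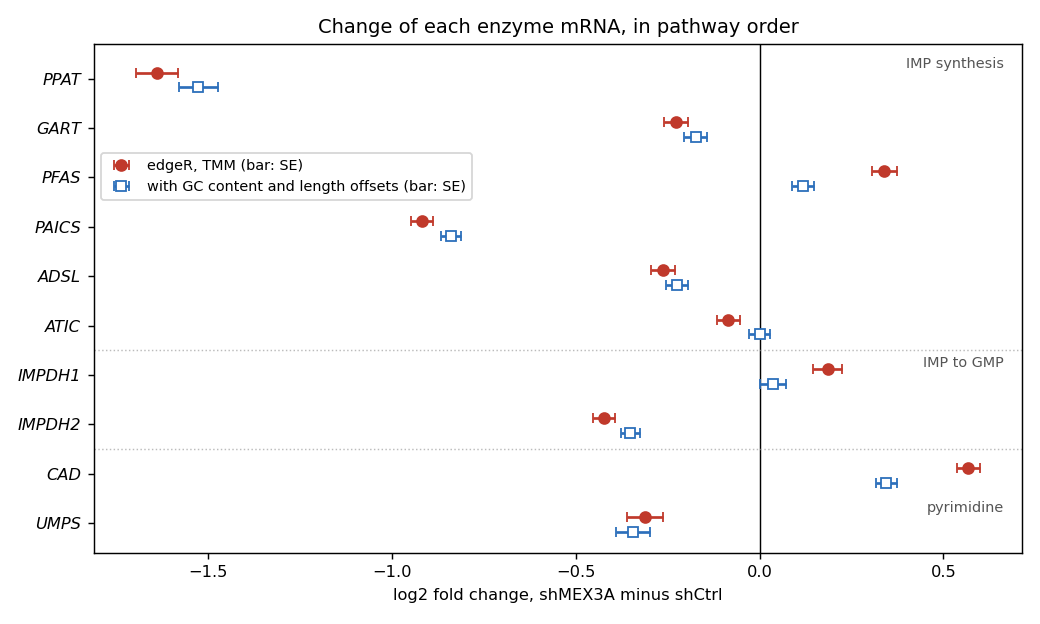
Log2 fold change (shMEX3A minus shCtrl, horizontal axis) of each enzyme in pathway order, from the edgeR test with TMM scaling (red) and with GC and transcript length offsets (blue), bars showing the SE. PPAT and PAICS stay far to the left with both, the rises of CAD and PFAS are smaller with the offsets, and ATIC and IMPDH1 lie near 0 with them.

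The enzymes of the branch to guanine nucleotides are isozymes that moved in opposite directions. IMPDH2, the form that predominates in dividing cells, was at 251, 244 and 248 CPM in shCtrl and at 182, 187 and 185 CPM in shMEX3A. It fell from 247 ± 3.43 to 185 ± 2.9 CPM (SD, n = 3; log2 fold change -0.42, SE 0.0302, adjusted p = 2.64e-15, edgeR). IMPDH1 was at 61.0, 59.8 and 61.7 CPM in shCtrl and at 67.1, 67.9 and 72.8 CPM in shMEX3A. It rose by 0.19 in log2 (SE 0.0386, adjusted p = 5.99e-05, edgeR), a call that was not made with GC and length offsets (0.036, adjusted p = 0.36).

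Counts of IMPDH2 made up 80.4%, 80.3% and 80.1% of the counts of both isozymes in shCtrl and 73.0%, 73.4% and 71.7% in shMEX3A. The widest Wilson 95% interval of a library ran from 70.8% to 72.7%, and such intervals cover counting error only. Mean shares were 80.3% ± 0.178 and 72.7% ± 0.897 (SD, n = 3 libraries), higher in shCtrl. The ratio of IMPDH1 to IMPDH2 CPM was 0.246 ± 0.00276 and 0.375 ± 0.0171 (two-sided exact permutation p = 0.1, the smallest possible). IMPDH2 stayed the more abundant mRNA in all 6 libraries, and per kilobase of annotated exon its share was 84.3% and 77.9%.

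The pyrimidine enzymes also parted. CAD is one large protein that joins carbamoyl phosphate synthetase, aspartate transcarbamylase and dihydroorotase, and it starts the pathway. It was at 151, 162 and 159.8 CPM in shCtrl and at 239, 229 and 234 CPM in shMEX3A. All shMEX3A libraries were higher, and CAD rose from 158 ± 5.56 to 234 ± 4.6 CPM (SD, n = 3; log2 fold change 0.57, SE 0.0321, adjusted p = 2.24e-18, edgeR). With GC and length offsets CAD was at 0.34 (adjusted p = 3.17e-13).

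UMPS, which converts orotate to uridine monophosphate at the end of the pathway, was at 35.1, 37.4 and 36.4 CPM in shCtrl and at 28.7, 30.6 and 28.2 CPM in shMEX3A. It fell from 36.3 ± 1.14 to 29.2 ± 1.27 CPM (SD, n = 3; log2 fold change -0.31, SE 0.0489, adjusted p = 5.82e-07, edgeR). The ratio of CAD to UMPS CPM was 4.35 ± 0.0365 in shCtrl and 8.03 ± 0.467 in shMEX3A, again without overlap (two-sided exact permutation p = 0.1, the smallest possible).

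Levels of different genes were compared as CPM per kilobase of the principal GENCODE transcript, a scale that rests on which transcript the cells make. In shCtrl IMPDH2 was highest (151 ± 2.09), followed by ATIC (85.9 ± 1.69), PAICS (46.2 ± 0.662), GART (41.2 ± 0.628) and ADSL (37.8 ± 0.324). CAD (21.7 ± 0.765), IMPDH1 (21.1 ± 0.327) and PFAS (20.2 ± 0.528) came next, and CAD and IMPDH1 overlapped over libraries. PPAT (11.2 ± 0.371) and UMPS (5.39 ± 0.169) were lowest. In shMEX3A PAICS (24.4 ± 0.452) had moved from the third place to the seventh, beside IMPDH1 (24.0 ± 1.09), with which it overlapped. CAD (32.2 ± 0.633) had moved up to the fourth place, where it overlapped ADSL (31.5 ± 1.10). PPAT (3.60 ± 0.261) lay under UMPS (4.33 ± 0.189) and was then the lowest of the 10. The order in each arm was the same with the longest annotated transcript. Together the 10 genes took 0.148% ± 0.0016 of all counts in the control arm and 0.124% ± 0.000448 after MEX3A knockdown (n = 3 libraries, SD).

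GC content moved with the change across these enzymes. The longest transcripts of the genes that rose had a GC content of 57.7% (CAD), 58.2% (PFAS) and 62.8% (IMPDH1), above those of the 7 that fell, which ran from 33.8% (PPAT) and 42.3% (PAICS) to 52.3% (IMPDH2). Across the 10 genes Pearson's r of GC content with the log2 fold change was 0.90 and Spearman's rho 0.79. The points share the same 6 libraries and are described here without a test. Over 14480 tested genes the values were 0.167 and 0.192, and the median log2 fold change went from -0.15 at 30% to 35% GC to 0.17 at 60% to 65%, and was lower again at 65% to 70% (0.13) and at 70% to 75% (0.03, 49 genes). PPAT and PAICS were at -1.53 and -0.84 with GC and length offsets, so most of each fall was still present with them.

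**Figure D4:**
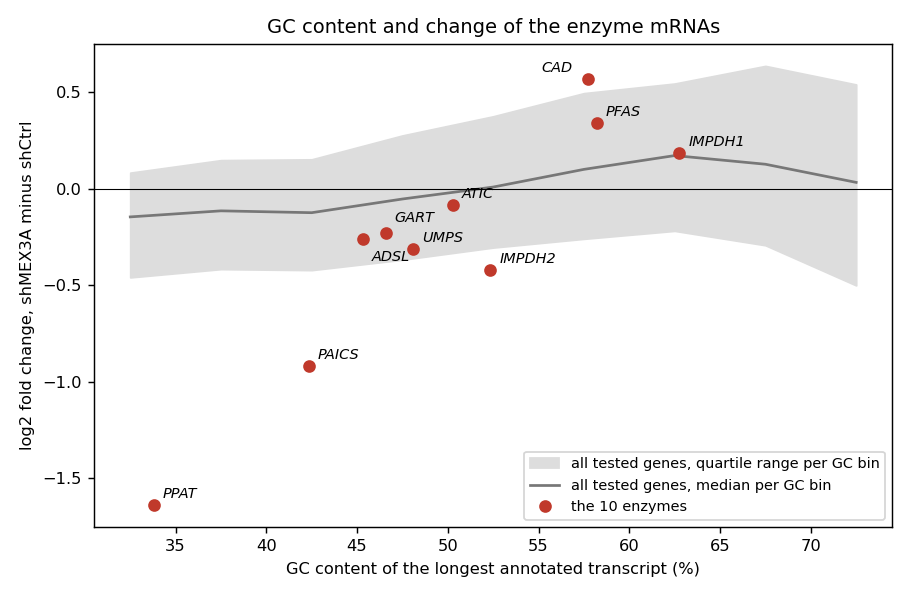
Log2 fold change (vertical axis) against GC content of the longest annotated transcript (horizontal axis, %) for the 10 enzymes (red points), over the median (line) and quartile range (grey) of all tested genes in bins of 5% GC. The enzymes that rose sit at 57.7% GC or more, and PPAT and PAICS lie well under the quartile range of genes of like GC content.

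The remaining enzymes of the de novo routes, all 6 of which were tested, had 5 falls and 1 rise (median log2 fold change -0.30). Counts in this and the following lists stand beside 35.6% called lower and 34.0% called higher over all tested genes. DHODH, the mitochondrial enzyme between CAD and UMPS, had a mean of 29.1 ± 1.23 CPM that fell to 23.9 ± 0.748 CPM (SD, n = 3), or -0.29 in log2 (SE 0.0526, adjusted p = 9.06e-06, edgeR). GMPS, which completes GMP after the IMPDH step, fell by 0.25 in log2. On the branch to AMP, the adenylosuccinate synthases ADSS2 and ADSS1 fell by 0.31 and 0.78 in log2, and ADSS1 was weakly expressed (5.24 ± 0.447 CPM in shCtrl). With GC and length offsets ADSS2 was at -0.11. The CTP synthases, like the IMP dehydrogenases, moved in opposite directions. CTPS1 rose from 104 ± 1.01 to 129 ± 1.54 CPM (0.31 in log2, SE 0.0328) and CTPS2 fell from 72.3 ± 0.375 to 45.5 ± 2.48 CPM (-0.67, SE 0.0402).

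PRPP feeds both routes, and the 4 tested genes of its supply fell (median -0.38), while PRPS1L1 did not pass the filter on low counts. The synthetase PRPS2 fell from 44.4 ± 2.12 to 25.5 ± 0.0723 CPM (SD, n = 3; log2 fold change -0.80, SE 0.0478, adjusted p = 1.14e-17, edgeR), and PRPSAP1, a protein associated with the synthetase, fell by 0.49 in log2. With GC and length offsets 2 of the 4 were called lower.

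Serine and folate enzymes, which supply carbon units for the purine ring, had 5 rises and 11 falls among 22 tested (median -0.09). GLDC of the glycine cleavage system went from 90.1 ± 2.41 to 44.5 ± 1.91 CPM (-1.02 in log2, SE 0.0392) and PSAT1 of serine synthesis from 191 ± 6.21 to 113 ± 2.78 CPM (-0.76, SE 0.0332). SLC25A32, the carrier that brings folate into mitochondria, rose from 16.02 ± 1.31 to 29.8 ± 0.692 CPM (0.89, SE 0.0584), and FPGS, which adds glutamates to folate, rose by 0.48. Genes for glutamine and aspartate supply gave 5 rises and 4 falls of 12 tested (median 0.11). The aspartate-glutamate carrier SLC25A13 rose by 0.55 and the glutamate transporter SLC1A3, at 1.81 ± 0.0648 CPM in shCtrl, by 1.43. Glutamine synthetase GLUL fell by 0.58 and the glutamine transporter SLC1A5 by 0.38.

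Salvage enzymes, which recycle bases and nucleosides, had 1 rise and 8 falls of 15 tested (median -0.10). The rise was in UPP1, uridine phosphorylase, from 43.4 ± 1.80 to 61.7 ± 1.13 CPM (0.51 in log2, SE 0.0408). The number of salvage rises was 5 with GC and length offsets, 3 with a filter of at least 1 CPM in 3 libraries, and 2 with DESeq2 size factors or without shCtrl replicate 1, shCtrl replicate 3 or shMEX3A replicate 2. Thymidine kinase TK1 fell by 0.55 and the uridine-cytidine kinase UCK2 by 0.29. Among deoxynucleotide enzymes and nucleotide kinases 3 rose and 11 fell of 19 tested (median -0.17). The ribonucleotide reductase subunits RRM2 and RRM1 fell by 0.87 and 0.54, while the mitochondrial adenylate kinase AK3 rose by 0.63 and the UMP-CMP kinase CMPK1 by 0.48.

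Breakdown enzymes held changes as large as any in these lists, with 6 rises and 7 falls of 17 tested (median -0.05). NT5E, the cell-surface 5'-nucleotidase also called CD73, rose from 114 ± 4.6 to 314 ± 1.11 CPM (SD, n = 3; log2 fold change 1.46, SE 0.0324, adjusted p = 4e-31, edgeR), and the AMP deaminase AMPD2 rose by 0.37, or 0.16 with GC and length offsets. Guanine deaminase GDA fell from 444 ± 10.8 to 171 ± 3.30 CPM (-1.37, SE 0.0308, adjusted p = 5.3e-31), and GMPR2, which returns GMP to IMP, fell from 62.9 ± 1.5 to 25.3 ± 0.843 CPM (-1.31, SE 0.0439). Of the nucleoside transporters 4 were tested, and SLC29A1 alone was called, with a rise of 0.42.

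**Figure D5:**
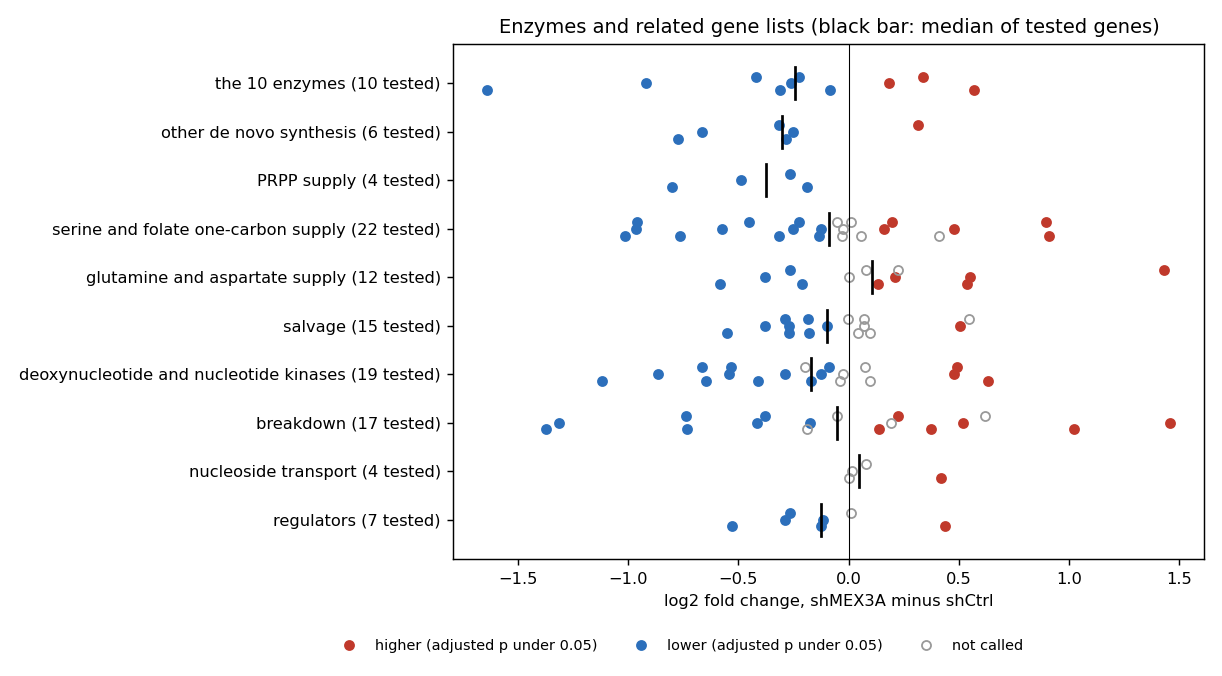
Log2 fold change (horizontal axis) of every tested gene in the 10 enzymes and in 9 lists of related genes, coloured by call, with a black bar for the median. Called falls outnumber called rises in all groups shown but glutamine and aspartate supply and nucleoside transport (over all tested genes 35.6% were lower and 34.0% higher), and outside the 10 enzymes the lowest and highest values are in the breakdown list.

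Of 7 genes known to act on nucleotide synthesis from above, 1 rose and 5 fell, where 34.0% and 35.6% of all tested genes did. The median absolute change of the 7 was 0.26 in log2, against 0.35 over all tested genes. The transcription factor MYC went from 151 ± 2.82 to 124 ± 2.40 CPM (SD, n = 3; log2 fold change -0.29, SE 0.0324, adjusted p = 4.85e-10, edgeR), and its partner MAX fell by 0.26. ATF4, which drives serine and folate genes under amino acid stress, fell from 429 ± 24.8 to 297 ± 4.47 CPM (-0.53, SE 0.0336). The mTORC1 subunit RPTOR rose by 0.44, or 0.19 with GC and length offsets, and MTOR was at 0.0089 (adjusted p = 0.821), but was called lower with the offsets (-0.11, adjusted p = 0.00121). RPS6KB1, the S6 kinase, was at -0.11 and RHEB, the activator of mTORC1, at -0.13, both called, but with GC and length offsets they were at 0.0035 and 0.0053. Leaving out shMEX3A replicate 2 removed both calls, so that 3 regulators fell.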

How the data were processed

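The authors deposited 1 table of raw read counts per gene, whole numbers with 1 column per library, with 42656 rows and no row without a gene name. The submitters' processing notes name HTSeq 2.0.4, STAR, fastp 0.20.0, edgeR 4.0.16 and GRCh38, without roles. Which annotation and strand setting the counting used is not given in the sources consulted, so reads of overlapping genes on either strand, such as GART with SON (3.55% of GART exon bases) or PPAT (2.22%) and IMPDH2 (3.35%) with antisense genes, cannot be told apart. Sharing of reads with pseudogenes was not analysed here.

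Here the deposited counts went into edgeR 4.0.16 under R 4.3.3 (filterByExpr, TMM, robust quasi-likelihood fit with 4 residual degrees of freedom, Benjamini-Hochberg over 15679 genes). SEs were taken from the F statistic. TMM takes most genes as unchanged, and would miss a shift in total mRNA. Alternatives used DESeq2 1.42.0, limma 3.58.1 and offsets from natural splines (5 degrees of freedom) of GC content and length in GENCODE 29, which covered 14480 tested genes. Data were simulated for this comparison over 15474 genes, few of which were changed. Recovery at 10 CPM or more was 35 of 36 for 1.25-fold changes, 39 of 39 for 1.5-fold and 43 of 43 for 2-fold changes. At all levels recovery was 39 of 66, 48 of 65 and 56 of 65, and 13 of 156 calls were false. In the real comparison 69.7% of tested genes were called, so these rates may not carry over to it.

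The members and lists were chosen with earlier results of these data known. Named genes are the 10 members, MEX3A, the other de novo enzymes, the regulators, and in each other list the 2 called genes with the smallest p in each direction. SON and CTC1 were chosen after their values were seen.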

Additional observations from a re-analysis of the deposited data

How the results depend on the processing

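Of the log2 fold changes of the 10 enzymes under 15 alternatives each, 146 kept their direction and call, 3 lost the call and 1 changed sign. ATIC ranged from -0.10 to -0.064 with 1 library left out and was at 0.00089 with GC and length offsets, and IMPDH1 was at 0.036 with the offsets. The enzymes not called went from 0 to 2 with the offsets and to between 0 and 1 with 1 library left out. With the offsets 2 PRPP genes were lower, 5 salvage genes higher and 1 nucleoside transporter lower. Salvage genes higher were 2 with DESeq2 size factors, 3 with a filter of at least 1 CPM in 3 libraries, and 1 to 2 with 1 library left out. Regulators lower were 3 to 5 with 1 library left out. MTOR changed sign without a low-count filter (-0.0034), with the offsets (-0.11, then called) and with 1 library left out (-0.016 to 0.024), and with the offsets RPS6KB1 was at 0.0035 and RHEB at 0.0053. RPS6KB1 lost its call in 8 other alternatives and RHEB in 2. Per kilobase of exon the IMPDH2 share was 84.3% in shCtrl and 77.9% in shMEX3A, a change of scale. The cause of the other differences was not tested.

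The labels do not say whether replicate numbers pair the arms. Deviations of same-numbered libraries from their arm's mean had correlations of -0.11 to 0.081. For differently numbered libraries the correlations were -0.051 to 0.15. With 3 libraries per arm these values cannot settle whether the arms were paired. The replicate block gave 5247 rises and 5504 falls among all tested genes, against 5336 and 5589, and among the enzymes all 10 calls were made. Of the named genes called without the block, RPS6KB1 alone was not called under it (log2 fold change -0.12, adjusted p = 0.0559, edgeR).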

Other observations

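By their GENCODE start sites, a further 2 of the enzymes start close to a gene on the other strand. All tested pairs with GENCODE start sites within 1000 bases were taken, a rule set after the data were seen. The PFAS start lies 477 bases from that of CTC1, a telomere maintenance gene, and CTC1 rose from 33.8 ± 1.24 to 42.4 ± 0.742 CPM (SD, n = 3; log2 fold change 0.32, SE 0.045, adjusted p = 5.93e-08, edgeR), beside 0.34 for PFAS. With GC and length offsets the values were 0.19 for CTC1 and 0.12 for PFAS. The closeness of PFAS and CTC1 depends on the annotation. The RefSeq promoter window of PFAS, chr17:8249039-8249338, does not hold the GENCODE PFAS start at 8247618. The RefSeq PFAS start, inside that window, is more than 1000 bases from the GENCODE CTC1 start at 8248095. With it this pair would not meet the rule. The GART start lies 873 bases from that of SON, a nuclear speckle protein. By the GENCODE starts these genes overlap at their 5' ends, as do PFAS and CTC1. Of the GART exon bases 3.55% lie under SON, while no exon bases of PFAS lie under another gene. SON rose from 278 ± 4.56 to 359 ± 2.78 CPM (0.37 in log2, SE 0.0293, adjusted p = 4.22e-14, edgeR) while GART fell by 0.23. Of the 3 pairs found with GENCODE starts, PPAT with PAICS and PFAS with CTC1 thus moved in one direction, and GART with SON in opposite directions.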
